A study of Mus musculus with 16 samples.

Results

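The proteasome subunit genes were described from long-read RNA sequencing of 2 brain regions, cortex and striatum, of R6/2 and control mice. A gene was included when it carried a known gene identifier in the annotation, its symbol began with Psma, Psmb, Psmc, Psmd, Psme, Psmf or Psmg followed by digits, and at least 1 read was assigned to it over all samples. Of 24035 known genes with a read, 47 met this rule, and each of the 47 was found in the GENCODE M21 annotation of GRCm38, on 16 chromosomes. The rule itself used no measured difference between groups, but it was set with earlier results of these data known.

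Full-length cDNA was sequenced on the PacBio Iso-seq platform from 16 samples of 3-month-old male mice. R6/2 is a transgenic model of Huntington's disease in which a fragment of the human HTT gene holding exon 1 with an expanded CAG repeat is expressed from its own promoter in a transgene, beside the unmodified mouse Htt gene. The controls were non-transgenic (NT) mice. Each of the 4 groups, cortex NT, cortex R6/2, striatum NT and striatum R6/2, held 4 samples of tissue from the left hemisphere, and all 16 libraries were treated with Terminator exonuclease and amplified over 27 PCR cycles without molecular identifiers. The labels did not link samples to animals, so the p-values measure the spread between these samples.

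The proteasome degrades proteins that carry ubiquitin chains. Its barrel-shaped core particle is built from rings of alpha (Psma) and beta (Psmb) subunits, with the proteolytic sites on beta subunits facing the inner chamber, and its regulatory particle holds a base of ATPases (Psmc) and non-ATPase subunits and a lid (Psmd) that bind, deubiquitinate, unfold and feed substrates to the core. Other caps open the core without ATP (the activators Psme1 to Psme4), an inhibitor binds it (Psmf1), chaperones (Psmg1 to Psmg4, Psmd5, Psmd9 and Psmd10) assemble it, and cells exposed to interferon replace the catalytic beta subunits with the immunoproteasome subunits Psmb8, Psmb9 and Psmb10. In Huntington's disease, N-terminal fragments of mutant huntingtin form inclusions that contain ubiquitin and proteasome subunits.

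Total reads per sample ranged from 252885 to 1496196, and reads assigned to genes from 202664 to 1349108. Levels are given in the usual unit CPM, a gene's share of the reads assigned to genes in a sample, after scaling by trimmed mean of M values, and a read stands for 1 sequenced cDNA whatever its length. In the striatum, NT replicates 1 and 2 and R6/2 replicates 2 and 3 each had 2 sets of counts, which were summed, and the other 12 samples had 1 set. These 4 samples stood apart from the other striatal samples: their mean isoform length was 2142 to 2225 nt against 1620 to 1886 nt, and the share of mitochondrial reads was 0.408 to 0.852% against 1.417 to 3.282%. Cortical samples had 1 set each, at 1851 to 2101 nt and 0.332 to 0.575%. The labels call the sets replicates without saying whether of a library, a run or a tissue piece, so every edgeR fit with striatal samples carried a term for the number of sets unless stated otherwise, which was balanced over genotypes. In the striatum 8 of 8 striatal projection neuron markers had reads and summed to 10480 to 14390 CPM in NT and 1949 to 3402 CPM in R6/2 samples, against 381 to 488 and 99.7 to 134 CPM in the cortex. The 6 cortical excitatory neuron markers were low in every group, at 203 to 457 CPM in the cortex and 71.3 to 356 CPM in the striatum, with up to 5 of the 6 at 0 in a striatal NT sample. Astrocyte markers (5 of 5 with reads) also lay lower in R6/2 samples, at 1237 to 1714 against 2110 to 3449 CPM in the cortex and 1187 to 1652 against 1844 to 3725 CPM in the striatum. Oligodendrocyte markers (5 of 5 with reads, none at 0) summed to 3010 to 6441 CPM in the cortex and 11790 to 29120 CPM in the striatum, where the 2-set samples (17220 to 29120 CPM) and the 1-set samples (11790 to 14420 CPM) did not overlap. Striatum NT replicate 3 held 9571 CPM of 3 choroid plexus markers, against at most 1613 CPM elsewhere. In bulk tissue, fewer cells of a type and less RNA per cell cannot be told apart.

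Together the 47 genes took 75667 reads, 1.41% of them genomic reads that were left out of gene counts. Summed per sample, they made up 8619, 8134, 9797 and 7310 CPM in cortex NT (mean 8465 ± 1039, SD, n = 4) and 9346, 8799, 8909 and 8349 CPM in cortex R6/2 samples (8851 ± 409.6, SD, n = 4). In the striatum the sum was 7019 and 7323 CPM in the 2-set NT samples and 7837 and 9199 CPM in the 1-set NT samples, and 7158 and 7384 CPM in the 2-set and 8562 and 8623 CPM in the 1-set R6/2 samples. The genotypes overlapped in both regions, with a difference of 386 CPM in the cortex and 87.2 CPM in the striatum that was smaller than the SD of either striatal group (964 and 769) and of the cortex NT group. The striatal samples instead fell apart by number of sets, at 7221 ± 165 CPM with 2 sets and 8555 ± 558 CPM with 1 set (SD, n = 4 each).

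Reads per gene ran from 3 for Psma8, the alpha subunit of testis, to 5843 for the base ATPase Psmc5. Psmb9 had 31 reads, Psme4 64 and Psmb8 85, and these 4 genes were too low to be tested in any comparison between groups. Psmg3, a core-particle chaperone with 137 reads, passed the filter on low counts in the striatum and in the fits of all samples but not in the cortex, so 42 genes were tested in the cortex and 43 elsewhere. Reads could be split between Psme2 or Psmb6 and their near-identical copies Psme2b and Psmb6-ps, whose reads are not counted here.

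R6/2 and NT mice were compared within each region to ask whether the proteasome genes change with the transgene. In the striatum 1 of 43 tested members passed the threshold, the activator subunit Psme1, which was higher in R6/2 mice. No member passed in the cortex. Over all genes, 4.34% of 7658 passed in the striatum and 3.27% of 6121 in the cortex, most of them lower in R6/2 (294 of 332 and 172 of 200).

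Psme1 and Psme2 encode the alternating subunits of an interferon-inducible ring that opens the core particle. Psme1 was measured at 47.95, 35.95, 45.8 and 38.3 CPM in cortex NT and 55.4, 53.1, 59.2 and 55.3 CPM in cortex R6/2 samples. Its striatal level was 34.2 and 24.3 CPM in the 2-set and 42.7 and 55.9 CPM in the 1-set NT samples, and 62.7 and 65.7 CPM in the 2-set and 72.9 and 68.8 CPM in the 1-set R6/2 samples. Every R6/2 sample lay above every NT sample in both regions, with 9 to 62 reads behind each value. The difference was 0.90 ± 0.21 on the log2 scale in the striatum (SE; edgeR quasi-likelihood, adjusted p = 0.0292) and 0.45 ± 0.23 in the cortex (adjusted p = 0.327), and the difference between these differences was 0.48 ± 0.30 (adjusted p = 0.864). The striatal call depended on the term for the number of sets: without it the difference was 0.85 (adjusted p = 0.315). With the first set of counts only, also fitted without the term, it was 0.85 (adjusted p = 0.496). Within each number of sets R6/2 also lay above NT, which follows from the lack of overlap given above and is no separate support. The adjusted p was 0.0171 to 0.0361 with striatum NT replicate 4 or 1 left out and 0.0599 to 0.0991 with any of the other 6 samples left out, striatum NT replicate 3 (0.0627) among them. Microglial markers, 6 of 6 with reads, summed to 274 to 398 CPM in striatum NT and 283 to 449 CPM in striatum R6/2 samples, and their part in the Psme1 difference was not tested.

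Psme2 was found at 36.7, 15.7, 20.3 and 18.2 CPM in cortex NT and 38.2, 48.8, 31.8 and 26.4 CPM in cortex R6/2 samples. In the striatum its values were 19.7 and 34.9 CPM in the 2-set and 42.7 and 50.8 CPM in the 1-set NT samples, and 35.7 and 20.1 CPM in the 2-set and 51.7 and 58.98 CPM in the 1-set R6/2 samples. The highest NT sample of the cortex lay within the R6/2 range, and the striatal groups overlapped over most of their range. Its differences were 0.71 ± 0.33 in the cortex (adjusted p = 0.279) and 0.10 ± 0.26 in the striatum (adjusted p = 0.915).

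Psme3 encodes the single subunit of a nuclear activator ring. It had 31.02, 44.9, 50.8 and 64.6 CPM in cortex NT and 45.8, 38.2, 51.98 and 84.1 CPM in cortex R6/2 samples. Striatal Psme3 was 97.3 and 77.02 CPM in the 2-set and 62.4 and 25.4 CPM in the 1-set NT samples, and 89.7 and 98.6 CPM in the 2-set and 59.3 and 61.4 CPM in the 1-set R6/2 samples. The genotypes overlapped in both regions, and striatum NT replicate 4 was the lowest of all 16 samples. Psme4, a large single-chain activator, was seen in 2 to 7 reads per sample, and its levels were 11.3, 6.74, 10.2 and 4.04 CPM in cortex NT and 7.64, 10.6, 7.22 and 7.21 CPM in cortex R6/2 samples. In striatal samples Psme4 lay at 3.94 and 4.86 CPM in the 2-set and 8.21 and 25.4 CPM in the 1-set NT samples, and 4.32 and 7.42 CPM in the 2-set and 6.08 and 4.92 CPM in the 1-set R6/2 samples. The one striatal value above the others, 25.4 CPM, came from the shallowest striatal library.

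**Figure D1:**
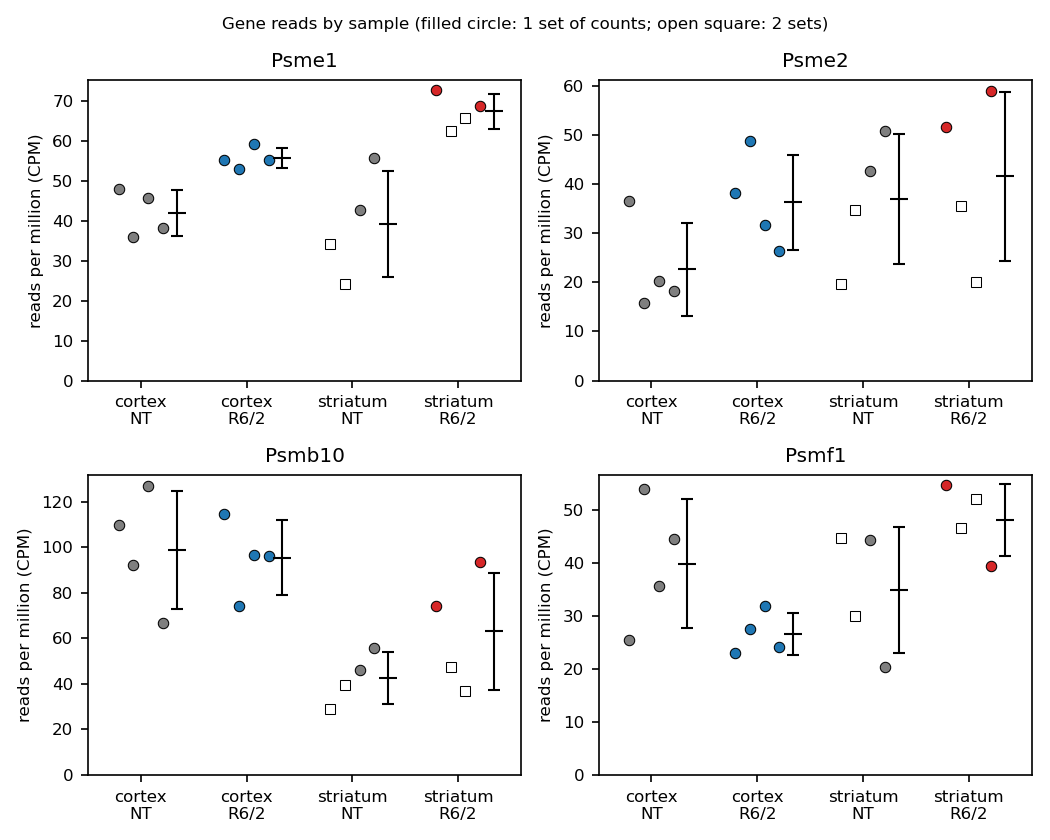
CPM (y axis) of Psme1, Psme2, Psmb10 and Psmf1 in each of 16 samples by group (x axis); filled circles are samples with 1 set of counts, open squares samples with 2 sets, and the bar gives mean ± SD of 4 samples. R6/2 samples of Psme1 lie at 53.1 to 59.2 CPM in the cortex and 62.7 to 72.9 CPM in the striatum, above the NT samples of the same region, while Psmb10 is lower in striatum NT than in cortex NT.

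Psmf1, the inhibitor that binds the core particle, had values pointing opposite ways in the 2 regions, neither past the threshold. It was measured at 25.4, 53.9, 35.6 and 44.4 CPM in cortex NT and 22.9, 27.6, 31.8 and 24.04 CPM in cortex R6/2 samples. Its striatal level was at 44.7 and 30 CPM in the 2-set and 44.3 and 20.3 CPM in the 1-set NT samples, and 46.5 and 51.9 CPM in the 2-set and 54.7 and 39.3 CPM in the 1-set R6/2 samples. Cortex NT replicate 1 lay among the R6/2 samples and the other NT samples above them, and in the striatum the groups overlapped. The differences were −0.59 ± 0.29 in the cortex (adjusted p = 0.299) and 0.39 ± 0.24 in the striatum (adjusted p = 0.435). The test of the difference between regions gave 1.01 ± 0.37 (adjusted p = 0.789). No member passed that test in edgeR or DESeq2, with 2 members (Psmf1 and Psmd9) at an unadjusted p under 0.05 in edgeR. Of 7390 genes 0.0406% passed, and 430 had an unadjusted p under 0.05.

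The immunoproteasome subunits take the places of Psmb5, Psmb6 and Psmb7 in the ring. Psmb10, which replaces Psmb7, was at 110, 92.1, 127 and 66.6 CPM in cortex NT and 115, 74.3, 96.8 and 96.2 CPM in cortex R6/2 samples. Its level in the striatum was 28.9 and 39.7 CPM in the 2-set and 45.97 and 55.9 CPM in the 1-set NT samples, and 47.6 and 37.1 CPM in the 2-set and 74.4 and 93.4 CPM in the 1-set R6/2 samples. Genotypes overlapped in both regions. The differences were 0.02 ± 0.22 in the cortex (adjusted p = 0.974) and 0.48 ± 0.22 in the striatum (adjusted p = 0.283). Psmb8 was found in 1 to 13 reads per sample, at 11.3, 6.74, 15.3 and 2.02 CPM in cortex NT and 13.4, 6.37, 17.3 and 12.02 CPM in cortex R6/2 samples. For Psmb8 in the striatum the values were 5.26 and 5.68 CPM in the 2-set and 6.57 and 5.08 CPM in the 1-set NT samples, and 5.40 and 13.8 CPM in the 2-set and 10.6 and 14.7 CPM in the 1-set R6/2 samples. Psmb9 was at 0 reads in 1 cortex NT and 1 striatum R6/2 sample and at 1 to 5 reads elsewhere, with levels of 0, 6.74, 5.08 and 4.04 CPM in cortex NT and 1.91, 4.24, 2.89 and 2.40 CPM in cortex R6/2 samples. Striatal levels of Psmb9 were 1.32 and 1.62 CPM in the 2-set and 3.28 and 5.08 CPM in the 1-set NT samples, and 5.40 and 5.30 CPM in the 2-set and 4.56 and 0 CPM in the 1-set R6/2 samples. Neither Psmb8 nor Psmb9 was tested between genotypes. Psmb11, the thymic subunit, had no read and is not among the members.

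In the core particle no alpha or beta subunit passed the threshold in either region. The cortical values of all 7 tested alpha subunits (median 0.19) and all 7 beta ring subunits (median 0.25) were above 0, as were 30 of 42 tested members (median 0.13), whereas the median over all 6121 genes was 0.0146. In the striatum 5 of 7 alpha and 4 of 7 beta ring values were above 0, with medians of 0.03 and 0.02, against 25 of 43 members (median 0.02) and a median of −0.0022 over all genes. The cortical values rest on the same 8 samples and were not tested as a group, and the share of all genes above 0 was not counted. The tested alpha and beta ring subunits also moved together between striatal samples of different numbers of sets, where differences ran with transcript length (below). The part of transcript length in the cortical values was not tested.

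Among the catalytic subunits, Psmb5 carries the chymotrypsin-like site. It was at 336, 211, 219 and 186 CPM in cortex NT and 323, 276, 285 and 233 CPM in cortex R6/2 samples. Its striatal values were 175 and 230.2 CPM in the 2-set and 325 and 376 CPM in the 1-set NT samples, and 215 and 174 CPM in the 2-set and 329.7 and 337 CPM in the 1-set R6/2 samples. R6/2 and NT samples overlapped in both regions. Psmb6, with the caspase-like site, had 349.7, 243, 305 and 226 CPM in cortex NT and 357, 291, 295 and 272 CPM in cortex R6/2 samples. In the striatum Psmb6 stood at 191 and 305 CPM in the 2-set and 425 and 508 CPM in the 1-set NT samples, and 249.7 and 251 CPM in the 2-set and 438 and 396 CPM in the 1-set R6/2 samples. Every 1-set striatal sample lay above every 2-set sample, whatever the genotype. Psmb7, with the trypsin-like site, was at 113, 124, 66.1 and 98.9 CPM in cortex NT and 157, 125, 117 and 123 CPM in cortex R6/2 samples. Striatal Psmb7 stood at 68.4 and 59.99 CPM in the 2-set and 107 and 137 CPM in the 1-set NT samples, and 75.7 and 71.01 CPM in the 2-set and 102 and 111 CPM in the 1-set R6/2 samples. Cortex NT replicate 3, the shallowest of the 16 libraries, gave the lowest cortical value, from 13 reads. The log2 differences between genotypes were 0.25 ± 0.20, 0.14 ± 0.19 and 0.34 ± 0.20 in the cortex for Psmb5, Psmb6 and Psmb7, with adjusted p of 0.571, 0.766 and 0.406, and in the striatum they were −0.08, −0.09 and 0.02, with adjusted p of 0.88, 0.881 and 0.994.

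Of the other core subunits, Psmb2 had the smallest unadjusted p in the cortex. It was at 119, 115, 61.01 and 111 CPM in cortex NT and 183, 134, 140.1 and 164 CPM in cortex R6/2 samples. Its striatal levels were 95.97 and 162 CPM in the 2-set and 163 and 254 CPM in the 1-set NT samples, and 148 and 121 CPM in the 2-set and 228 and 238 CPM in the 1-set R6/2 samples. All 4 cortical R6/2 samples lay above all 4 NT samples, with NT replicate 3 far below the other 3 NT samples on 12 reads. The cortical difference was 0.57 ± 0.20 (adjusted p = 0.152). Psmb1, another beta ring subunit without a proteolytic site, had 291, 267, 279.6 and 214 CPM in cortex NT and 340, 308, 251 and 272 CPM in cortex R6/2 samples. Striatal Psmb1 was 199.8 and 289 CPM in the 2-set and 351 and 467 CPM in the 1-set NT samples, and 213 and 223 CPM in the 2-set and 359 and 425 CPM in the 1-set R6/2 samples. Again the 1-set samples were the higher ones. Psma7, an alpha ring subunit, was at 341, 238, 289.8 and 246 CPM in cortex NT and 447, 344, 328 and 272 CPM in cortex R6/2 samples. In striatal samples Psma7 was 187 and 217 CPM in the 2-set and 465 and 787 CPM in the 1-set NT samples, and 206 and 232 CPM in the 2-set and 456 and 555 CPM in the 1-set R6/2 samples. The 1-set samples, at 456 to 787 CPM, were all above the 2-set samples, at 187 to 232 CPM. The genotype differences of Psma7 were 0.34 ± 0.20 in the cortex (adjusted p = 0.398) and −0.10 ± 0.19 in the striatum (adjusted p = 0.872). Psma5 had a cortical difference of 0.48 ± 0.19 (adjusted p = 0.194).

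**Figure D2:**
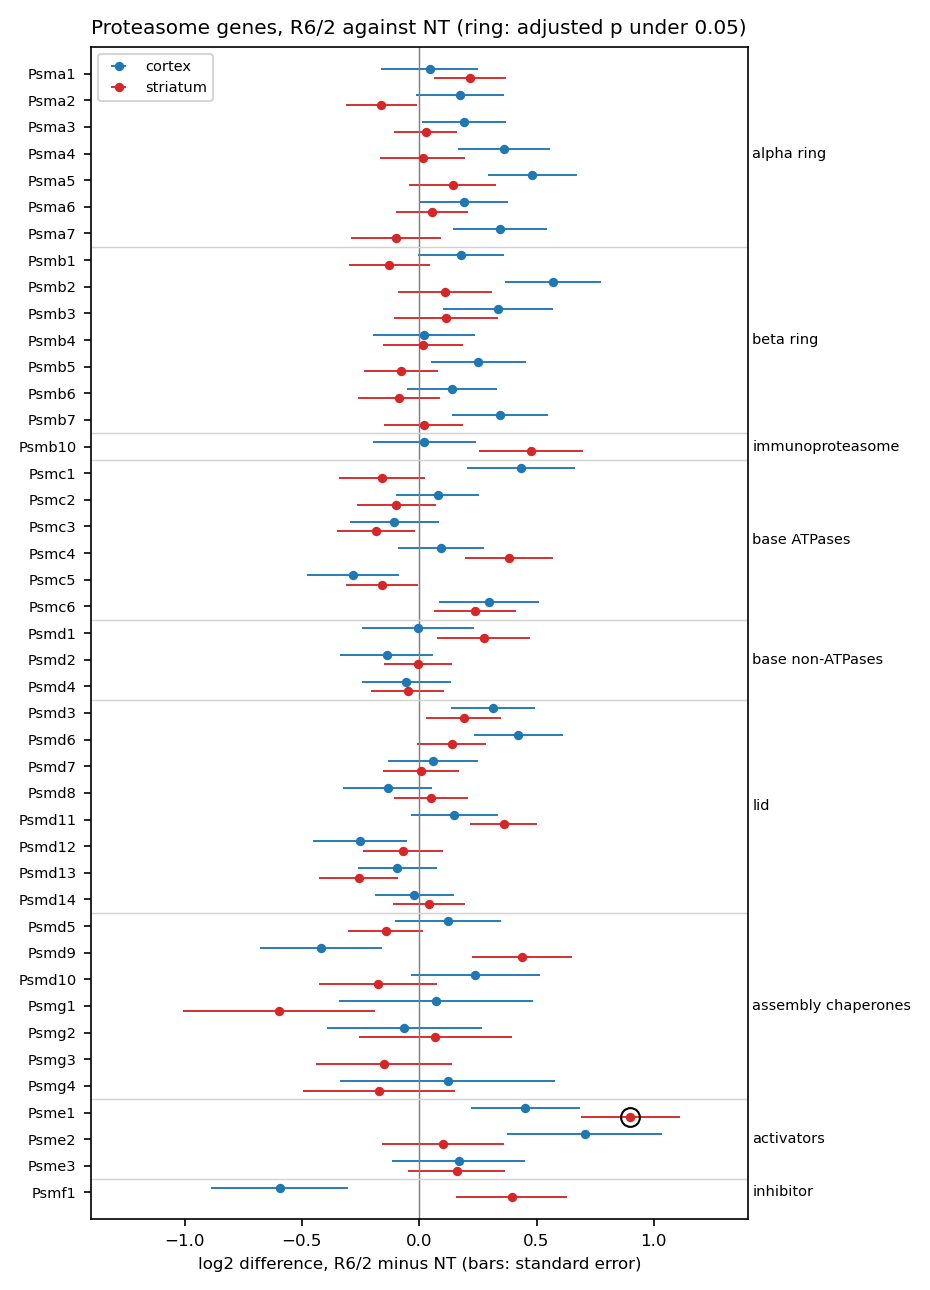
Log2 difference between R6/2 and NT (x axis; points are estimates, bars standard errors) for the members tested in the cortex (blue, 42) and the striatum (red, 43), ordered by role (y axis). The ringed point is striatal Psme1 at 0.90, and the alpha and beta ring values of the cortex all lie to the right of 0.

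The regulatory particle gave no call between genotypes. Its 6 base ATPases, which unfold the substrate, had cortical differences between −0.28 and 0.43 and striatal ones between −0.19 and 0.38. Psmc5 was at 857, 753, 1129 and 636 CPM in cortex NT and 689.5, 656, 718 and 666 CPM in cortex R6/2 samples. Its striatal level was measured at 647 and 649 CPM in the 2-set and 517 and 478 CPM in the 1-set NT samples, and 497 and 546 CPM in the 2-set and 529 and 489 CPM in the 1-set R6/2 samples. The cortical NT value of replicate 3 was the highest, and the striatal groups overlapped. Psmc4 had 372, 312, 392 and 270.4 CPM in cortex NT and 353, 314, 384 and 358 CPM in cortex R6/2 samples. In the striatum Psmc4 was 260.3 and 286 CPM in the 2-set and 229.9 and 122 CPM in the 1-set NT samples, and 295 and 325 CPM in the 2-set and 289 and 288 CPM in the 1-set R6/2 samples. Striatal R6/2 samples of Psmc4 did not overlap NT samples (288 to 325 against 122 to 286 CPM), with a difference of 0.38 ± 0.19 (adjusted p = 0.319). Psmc1 was at 206, 294, 107 and 250.2 CPM in cortex NT and 273, 335, 329 and 245 CPM in cortex R6/2 samples. Striatal Psmc1 was at 368 and 313 CPM in the 2-set and 374 and 589 CPM in the 1-set NT samples, and 353 and 369 CPM in the 2-set and 394 and 327 CPM in the 1-set R6/2 samples. Cortex NT replicate 3 was again the lowest, from 21 reads, and the differences were 0.43 ± 0.23 in the cortex (adjusted p = 0.343) and −0.16 ± 0.18 in the striatum (adjusted p = 0.74).

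Of the non-ATPase subunits of the base, the scaffold Psmd2 was at 322, 407, 579.6 and 436 CPM in cortex NT and 332, 439, 388 and 397 CPM in cortex R6/2 samples. Its striatal values were at 497 and 444 CPM in the 2-set and 239.7 and 229 CPM in the 1-set NT samples, and 449 and 446 CPM in the 2-set and 263 and 241 CPM in the 1-set R6/2 samples. Here the 2-set samples were the higher ones, and the genotypes overlapped. The ubiquitin receptor Psmd4 and the scaffold Psmd1 had genotype differences between −0.06 and 0.27 over both regions.

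The 8 lid subunits had cortical differences of −0.25 to 0.42 and striatal differences of −0.26 to 0.36. Psmd11 was at 271, 344, 325 and 219.9 CPM in cortex NT and 292, 325, 347 and 303 CPM in cortex R6/2 samples. Its striatal values came to 196 and 198 CPM in the 2-set and 168 and 158 CPM in the 1-set NT samples, and 276 and 231 CPM in the 2-set and 225 and 202 CPM in the 1-set R6/2 samples. In the striatum all R6/2 samples lay above all NT samples, by 0.36 ± 0.14 (adjusted p = 0.201). Psmd7, the partner of the deubiquitinase Psmd14, had 378, 289.9, 473 and 291 CPM in cortex NT and 369, 382, 362 and 344 CPM in cortex R6/2 samples. In the striatum it had 239 and 249 CPM in the 2-set and 235 and 188 CPM in the 1-set NT samples, and 227 and 284 CPM in the 2-set and 245 and 172 CPM in the 1-set R6/2 samples. The genotypes overlapped in both regions. Psmd12 was at 237, 214, 412 and 234 CPM in cortex NT and 239, 206, 227 and 214 CPM in cortex R6/2 samples. Its level in striatal samples was 176 and 219.7 CPM in the 2-set and 172 and 122 CPM in the 1-set NT samples, and 172 and 189 CPM in the 2-set and 137 and 182 CPM in the 1-set R6/2 samples. Cortex NT replicate 3 stood above the other cortical samples, on 81 reads, and the groups overlapped otherwise. Psmd6 had a cortical difference of 0.42 ± 0.19 (adjusted p = 0.255).

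Among the assembly chaperones, Psmg4, which helps to build the alpha ring, was found in 1 to 42 reads per sample. It was at 25.4, 2.25, 40.7 and 22.2 CPM in cortex NT and 30.6, 12.7, 20.2 and 21.6 CPM in cortex R6/2 samples. In striatal samples it was at 11.8 and 15.4 CPM in the 2-set and 62.4 and 152 CPM in the 1-set NT samples, and 10.8 and 16.96 CPM in the 2-set and 60.8 and 103 CPM in the 1-set R6/2 samples. The 1-set striatal samples lay at 60.8 to 152 CPM and the 2-set samples at 10.8 to 17.0 CPM, with no overlap. The genotype differences were 0.12 ± 0.46 in the cortex (adjusted p = 0.93) and −0.17 ± 0.32 in the striatum (adjusted p = 0.866). The base chaperone Psmd9 had values of −0.42 ± 0.26 in the cortex (adjusted p = 0.434) and 0.44 ± 0.21 in the striatum (adjusted p = 0.309).

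With edgeR, 4 of the 42 cortical members had an unadjusted p under 0.05 (Psma5, Psmb2, Psmd6 and Psme2, all with values above 0), against 1055 of 6121 genes, but none an adjusted p under the threshold of 0.05, and DESeq2 called none. The samples of both genotypes did not overlap for 2 of 42 members in the cortex (Psmb2 and Psme1) and 3 of 43 in the striatum (Psmc4, Psmd11 and Psme1). All of these were higher in R6/2. Over all genes 10.0% of 6121 and 6.11% of 7658 did not overlap in either direction. In the cortex 219 of them were higher and 396 lower in R6/2, and in the striatum 140 and 328. Leaving out cortex NT replicate 1 gave 1 cortical call, Psmb3.

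Genes that work with the proteasome were taken as lists beside it. The first list held 14 partners: the ubiquitin receptor Adrm1, the small subunit Shfm1 (Sem1), the deubiquitinases Uchl5 and Usp14, the assembly factor Pomp, and Paaf1, Ube3c, AI314180 (Ecpas), Txnl1, Akirin2, Zfand5, Ddi2 and the transcription factors Nfe2l1 and Nfe2l2, of which 13 had reads. Between genotypes edgeR called 0 of 10 tested partners in the cortex (1 at an unadjusted p under 0.05) and 0 of 11 in the striatum (0 unadjusted), with medians of 0.18 and 0.05. The cortical partner with the smallest p was Shfm1, at 0.61 ± 0.23 (adjusted p = 0.164). The second list held 17 genes of ubiquitin, its activation and its shuttling, all with reads. It gave 0 of 14 calls in the cortex (2 unadjusted) and 0 of 15 in the striatum (2 unadjusted), with medians of 0.20 and 0.06. Ubqln1, a shuttle for ubiquitinated proteins, had differences of 0.74 ± 0.28 (adjusted p = 0.165) and 0.47 ± 0.18 (adjusted p = 0.197), and Uba1, which activates ubiquitin, had 0.58 ± 0.17 in the striatum (adjusted p = 0.0852).

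Striatum and cortex were compared within a genotype to ask which proteasome genes differ between the regions. With the term for the number of sets, 20 of 43 members passed in NT mice, 11 higher and 9 lower in the striatum, and 10 of 43 passed in R6/2 mice, 5 in each direction. Over all 7390 genes the shares were 33.4% (1165 higher, 1302 lower) and 27.3% (956 higher, 1058 lower). Without the term, 4 members passed in NT mice (1 higher, 3 lower) and 2 in R6/2 mice (1 in each direction), against 14.9% (538 higher, 563 lower) and 11.4% (426 higher, 414 lower) of all genes. Since every cortical sample had 1 set, the fit with the term set the cortex against the 1-set striatal samples, and both versions are given. The oligodendrocyte markers were higher in the striatum and differed with the number of sets, and their part in the regional differences was not tested.

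In NT mice, members called higher in the striatum were 5 beta ring subunits (Psmb1, Psmb2, Psmb3, Psmb5 and Psmb6), the alpha subunits Psma2 and Psma7, the ATPase Psmc1, the activator Psme2 and the chaperones Psmg3 and Psmg4. Lower were Psmb10, the ATPases Psmc4 and Psmc5, the 3 non-ATPase subunits of the base (Psmd1, Psmd2 and Psmd4) and the lid subunits Psmd7, Psmd11 and Psmd12. The values ran from −0.83 ± 0.20 for Psmd2 (adjusted p = 0.00299) to 2.20 ± 0.46 for Psmg4 (adjusted p = 0.000718). In R6/2 mice Psma7, Psmb3, Psmf1, Psmg2 and Psmg4 were called higher and Psmc2, Psmd2, Psmd7, Psmd11 and Psmd13 lower. Leaving out striatum NT replicate 4, the shallowest striatal library, reduced the NT count to 8, and leaving out any of 5 samples (striatum R6/2 replicate 1, 3 or 4, cortex R6/2 replicate 3 or 4) reduced the R6/2 count to 3 to 6. With no filter on low counts, 12 members passed in NT and 7 in R6/2 mice, all of them higher in the striatum, so the calls of lower members rest on the filtered fit.

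Additional fits, chosen after the values were seen, compared the cortex with the 1-set or the 2-set striatal samples alone. In NT mice 15 members passed with the 1-set samples and 4 with the 2-set samples, against 29.4% of 7448 and 19.6% of 7941 genes. In R6/2 mice 3 and 5 members passed, against 20.4% and 20.7% of these genes. Psmb10 was called lower in the NT striatum in all of these fits, by −0.79 ± 0.27 with the term (adjusted p = 0.026), −1.24 ± 0.30 without it (adjusted p = 0.00957), −0.95 ± 0.32 with the 1-set samples (adjusted p = 0.0261) and −1.397 ± 0.28 with the 2-set samples (adjusted p = 0.00135). Its 4 NT samples lay at 28.9 to 55.9 CPM in the striatum and 66.6 to 127 CPM in the cortex. The call of the fit with the term was lost in 5 alternative settings and kept in 5. Among the lost ones were DESeq2 (adjusted p = 0.0617), no filter (adjusted p = 0.264), ISM reads left out (adjusted p = 0.138) and the replicate block, fitted without the term. It was also lost when striatum NT replicate 3 or 4 or cortex NT replicate 1, 2 or 3 was left out (−0.79 to −0.49, adjusted p = 0.0571 to 0.259). In R6/2 mice Psmb10 differed by −0.31 ± 0.24 with the term (adjusted p = 0.355) and −1.15 ± 0.27 with the 2-set samples (adjusted p = 0.00446).

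Psmc1, Psmd7 and Psmd11 passed in NT mice with the term, without it and with the 1-set samples, and missed the threshold with the 2-set samples at the same sign. Psmc1 differed by 0.99 ± 0.25 with the term (adjusted p = 0.0039) and 0.67 ± 0.26 with the 2-set samples (adjusted p = 0.0784). Psmd11 differed by −0.81 ± 0.19 (adjusted p = 0.00217) and −0.50 ± 0.21 (adjusted p = 0.107), and Psmd7 by −0.75 ± 0.21 (adjusted p = 0.00762) and −0.48 ± 0.22 (adjusted p = 0.134). Without cortex NT replicate 2 Psmd11 was at −0.49 (adjusted p = 0.069), and without cortex NT replicate 1 Psmd7 was at −0.48 (adjusted p = 0.0795). For each of the 3 genes, picked by these same values, no NT sample of the striatum overlapped the NT samples of the cortex. The share of all genes without such an overlap was not counted, so this adds no support to the calls.

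Psmf1 was higher in the R6/2 striatum than in the R6/2 cortex with the term (0.84 ± 0.29, adjusted p = 0.0339), without it (0.85 ± 0.26, adjusted p = 0.0439) and with the 2-set samples (0.89 ± 0.28, adjusted p = 0.03), and at 0.84 ± 0.33 with the 1-set samples (adjusted p = 0.074). Its R6/2 samples lay at 39.3 to 54.7 CPM in the striatum and 22.9 to 31.8 CPM in the cortex. The call was lost without striatum R6/2 replicate 1 or 3 or cortex R6/2 replicate 1 or 4 (0.70 to 0.82, adjusted p = 0.0514 to 0.172). In NT mice the value was −0.17 ± 0.31 (adjusted p = 0.707). By contrast, Psmg4, Psma7 and Psmd2 changed sign between the 1-set and 2-set samples in both genotypes, and Psmb1, Psmb5 and Psmb6 in NT mice.

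Of the partners, 5 of 11 passed between regions in NT mice (Pomp at 0.73 ± 0.21 and Shfm1 at 1.80 ± 0.24 higher in the striatum, Txnl1, Usp14 and Zfand5 lower) and 5 of 11 in R6/2 mice (Shfm1 higher, Akirin2, Txnl1, Usp14 and Zfand5 lower). Without the term 3 passed in each genotype. Of the ubiquitin and shuttle genes 5 of 15 passed in NT and 6 of 15 in R6/2 mice, and 1 and 2 without the term. Over all genes the shares in NT and R6/2 mice were 33.4% and 27.3% with the term and 14.9% and 11.4% without it.

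The number of sets was therefore examined as a contrast of its own among the 8 striatal samples, adjusted for genotype. Of 43 members, 23 passed, 21 lower and 2 higher in the 2-set samples, against 30.4% of 7658 genes (860 higher, 1465 lower). Every alpha and every beta ring subunit tested was lower (7 of 7 each, medians −0.78 and −0.94), as were Psmb10, Psmc3, Psmd6, Psme2, Psmg2, Psmg3 and Psmg4. Only the scaffold subunits Psmd1 (0.63 ± 0.20, adjusted p = 0.0297) and Psmd2 (0.74 ± 0.15, adjusted p = 0.00188) passed in the other direction. Psmg4 had the lowest value of the members, −2.80 ± 0.32 (adjusted p = 4.07e-05), followed by Psma7 at −1.58 ± 0.20 (adjusted p = 6.11e-05). The part of the oligodendrocyte markers, which lay higher in the 2-set samples, was not tested.

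The differences ran with transcript length. All 9 members with a read-weighted mean isoform length under 1000 nt were lower in the 2-set samples (median −1.004), as were 11 of 21 members at 1000 to 1500 nt (median −0.54), while of 13 members from 1500 nt upwards 1 was lower and 2 were higher (median 0.09). Across the 43 genes, which share the same 8 libraries, Spearman's rho between length and difference was 0.878. The part of transcript length in the regional differences was not tested.

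**Figure D3:**
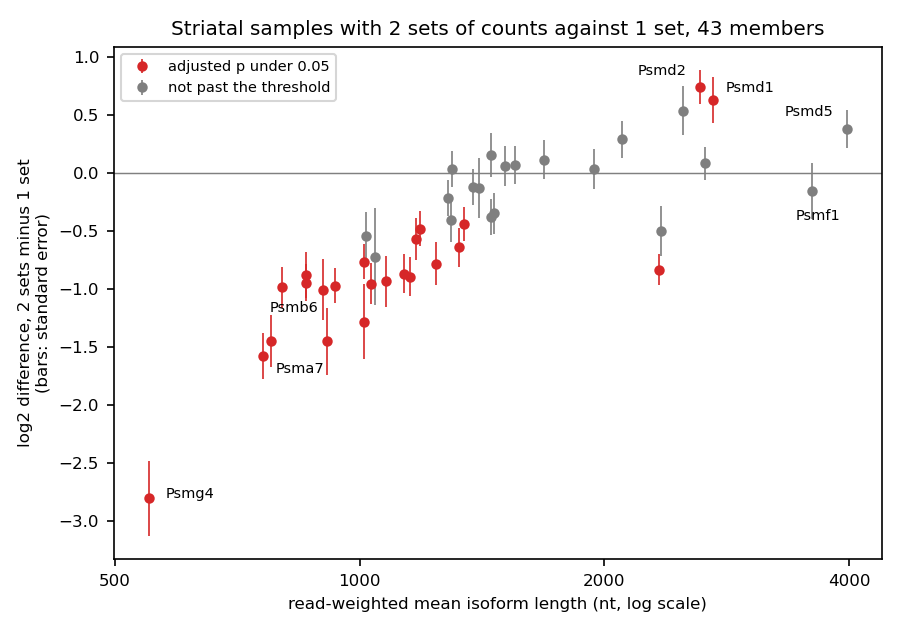
Log2 difference between striatal samples with 2 sets and with 1 set of counts (y axis; bars are standard errors) against read-weighted mean isoform length (x axis, nt, log scale) for 43 members; red points passed an adjusted p of 0.05. Psmg4 lies lowest at −2.80 at the short end, and Psmd2 (0.74) and Psmd1 (0.63) lie highest among the called members, at longer lengths.

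Long reads also show which isoform of a member each molecule was. Shares of isoforms were computed over reads of known isoforms and of new combinations of known or unknown splice sites. For 4 members the 2 leading isoforms differed by an internal coding stretch, which is printed here in capitals with 15 transcript bases on either side, in the direction of transcription, from GRCm38 with GENCODE M21 transcripts. These 4 were chosen after the values were seen, because a short stretch sets their isoforms apart, and the isoforms of Psma3, Psmd10 and Psmg4 also differ in noncoding sequence at an end.

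Psmd4 9-base stretch: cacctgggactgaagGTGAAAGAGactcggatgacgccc
Psma3 5-base stretch: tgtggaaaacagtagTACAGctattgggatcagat
Psmd10 79-base stretch: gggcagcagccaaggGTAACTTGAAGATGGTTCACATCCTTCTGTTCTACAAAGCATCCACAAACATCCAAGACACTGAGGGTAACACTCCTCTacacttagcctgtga
Psmg4 76-base exon: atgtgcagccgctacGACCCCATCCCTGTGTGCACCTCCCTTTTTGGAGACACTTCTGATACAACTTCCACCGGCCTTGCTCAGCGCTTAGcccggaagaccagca

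The Psmd4 stretch lies at chr3:95033909-95033917 on the minus strand. It is coding sequence of ENSMUST00000071664 (coding length 1137 nt) and absent from ENSMUST00000107237 (1128 nt), so the reading frame is kept. The isoform with the 9 bases took 27.8% of pooled Psmd4 reads and the isoform without them 66.3%. Its share was 27.1, 26.3, 27.1 and 26.5% in cortex NT and 26.3, 27.1, 30.2 and 25.6% in cortex R6/2 samples. In the striatum its share was 19.9 and 24.4% in the 2-set and 35.9 and 25.7% in the 1-set NT samples, and 36.7 and 26.1% in the 2-set and 31.9 and 28.4% in the 1-set R6/2 samples. Cortical samples lay between 25.6 and 30.2%, and striatal samples spread from 19.9 to 36.6% with the genotypes overlapping. The mean differed by 0.54 points between cortical genotypes (26.8 ± 0.40% in NT, 27.3 ± 2.02% in R6/2, SD, n = 4; exact permutation test, two-sided, p = 0.857) and by 4.26 points in the striatum (exact permutation p = 0.314).

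In Psma3 the 5 bases at chr12:70983319-70983323 on the plus strand are coding sequence of ENSMUST00000160027, which took 75.7% of pooled reads, and are absent from ENSMUST00000071704, which is annotated as a target of nonsense-mediated decay and took 8.64%. The share of the isoform without the 5 bases was 6.33, 7.69, 5.56 and 7% in cortex NT and 8.28, 8.70, 7.96 and 10% in cortex R6/2 samples. Striatal shares of this isoform were 5.30 and 8.68% in the 2-set and 12.4 and 14.3% in the 1-set NT samples, and 10.1 and 6.82% in the 2-set and 8.07 and 11.2% in the 1-set R6/2 samples. In the cortex every R6/2 sample lay above every NT sample, at 8.73 ± 0.90% against 6.64 ± 0.92% (SD, n = 4; exact permutation p = 0.0286, the smallest that 70 arrangements can give; adjusted p = 0.343 over 44 isoforms). In the striatum the means were 9.05 ± 1.98% in R6/2 and 10.2 ± 3.998% in NT mice, with the genotypes overlapping. Another Psma3 isoform, ENSMUST00000160683 of 10 exons, is annotated as a retained intron. This isoform was singled out after its values were seen, so a lack of overlap between its groups is no separate support. In the striatum it took 3.20 to 5.36% of reads in NT samples, on 3 to 9 reads each, and 0.862 to 2.69% in R6/2 samples, on 1 to 5 reads each, without overlap. Its means, 4.80 ± 1.07% (NT) against 1.91 ± 0.81% (R6/2; SD, n = 4), were under the minimum share for a permutation test, and edgeR's test of isoform usage in Psma3 gave an adjusted p = 1. Cortical means were 5.11 ± 2.65% (NT) against 3.04 ± 2.04% (R6/2), with an exact permutation p = 0.371 (SD, n = 4).

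The Psmd10 stretch of 79 bases lies at chrX:140952147-140952225 on the minus strand and belongs to ENSMUST00000033805 (coding length 693 nt, 64.3% of pooled reads), while ENSMUST00000112978 (453 nt, 33.2%) lacks it. Psmd10, also called gankyrin, is a chaperone of the base. The shorter coding form took 50, 25, 50 and 23.1% in cortex NT and 44.4, 25, 12.9 and 26.3% in cortex R6/2 samples. In the striatum it took 33.3 and 48.9% in the 2-set and 41.7 and 8.33% in the 1-set NT samples, and 30 and 26.5% in the 2-set and 36 and 54.6% in the 1-set R6/2 samples. With 10 to 49 reads per sample the shares scattered between 8.33 and 54.5%, and the genotypes overlapped in both regions (exact permutation p = 0.314 for cortical and 0.8 for striatal samples, or 0.833 within the samples of the same number of sets).

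The 76-base exon of Psmg4, at chr13:34166061-34166136 on the plus strand, is part of ENSMUST00000147632 (71.0% of pooled reads) and is skipped in ENSMUST00000124996 (26.4%, coding length 246 nt). The isoform without the exon took 33.3, 0, 0 and 0% in cortex NT and 12.5, 50, 7.14 and 22.2% in cortex R6/2 samples. In striatal samples the isoform without it took 0 and 35.3% in the 2-set and 34.2 and 23.3% in the 1-set NT samples, and 30 and 50% in the 2-set and 30 and 30.95% in the 1-set R6/2 samples. With this few reads the shares were not put to the permutation test, and edgeR's test of isoform usage in Psmg4 gave an adjusted p = 1 between genotypes in each region.

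**Figure D4:**
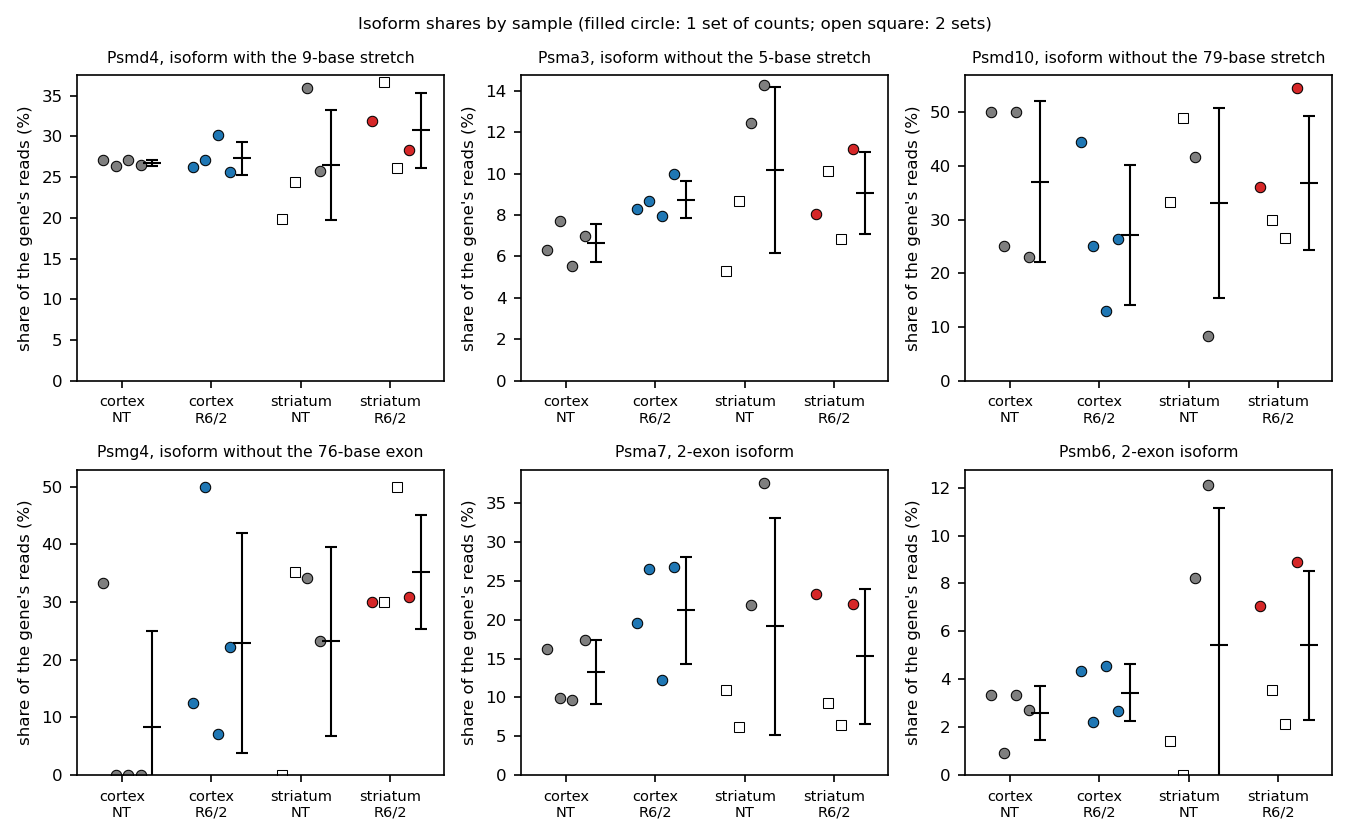
Share of a gene's reads (%, y axis) taken by 1 isoform of Psmd4, Psma3, Psmd10, Psmg4, Psma7 and Psmb6 in each of 16 samples by group (x axis); filled circles have 1 set of counts, open squares 2 sets, and bars are mean ± SD of 4 samples. The Psma7 and Psmb6 isoforms of 2 exons lie higher in the 1-set than in the 2-set striatal samples, and the Psma3 isoform without 5 bases lies higher in cortex R6/2 than in cortex NT samples.

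Over all isoforms with a mean share of at least 5% in genes with at least 10 reads in every sample, 44 isoforms of 31 members were compared between genotypes in the cortex and 41 of 32 members in the striatum. None passed after adjustment (smallest adjusted p = 0.343 and 0.805, exact permutation tests). With 70 arrangements the adjustment could call an isoform only if many sat at the smallest possible p together. The lack of calls therefore says little about whether shares differ. An unadjusted p at that smallest value, 0.0286, was found for 2 and 1 isoforms. Beside Psma3 these were ENSMUST00000017572 of Psmd11 in the cortex, at 86.2 ± 1.86% in NT and 89.9 ± 1.78% in R6/2 mice, and the 1-exon isoform ENSMUST00000196137 of Psmd9 in the striatum, at 6.72 ± 3.29% and 1.18 ± 1.38% (SD, n = 4). The means differed by under 5 percentage points for 39 of 44 and 35 of 41 isoforms. The widest differences were 14.5 points lower in R6/2 for Psmb10 ENSMUST00000034369 in the cortex (74.9 ± 9.23% in NT, 60.4 ± 7.47% in R6/2; exact permutation p = 0.0857) and 8.23 points lower for Psmd4 ENSMUST00000107237 in the striatum (69.9 ± 6.45% against 61.7 ± 2.45%; exact permutation p = 0.0857). These tests leave out the number of sets. Genotypes were also exchanged only among striatal samples of the same number of sets, in 36 arrangements, where the smallest possible p is 0.0556. This exact permutation p was 0.0556 for the 1-exon Psmd9 isoform, 0.111 for Psmd4 ENSMUST00000107237 and 0.389 for Psmd4 ENSMUST00000071664. Psma3 ENSMUST00000160027, Psmd14 ENSMUST00000028278 and Psmd9 ENSMUST00000100729 were at the same smallest value. A p under 0.05 could not arise in this version of the test.

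Isoform usage was also tested per gene with edgeR, which sets the change of each isoform against that of its gene and combines the isoforms by Simes' method. Between genotypes 0 of 22 members passed in the cortex (0 at an unadjusted p under 0.05) and 0 of 28 in the striatum (1 unadjusted). Over all genes 0.360% of 3058 and 0.428% of 4437 passed (168 and 295 genes unadjusted). The member with an unadjusted p under 0.05 was Psma1, an alpha ring subunit (edgeR, adjusted p = 0.281). Its leading isoform ENSMUST00000033008 took 86.4, 90.9, 90.6 and 94.2% in cortex NT and 82.3, 89.8, 90.6 and 85.1% in cortex R6/2 samples. In the striatum that isoform took 91.4 and 87.9% in the 2-set and 81.9 and 88.1% in the 1-set NT samples, and 90.5 and 86.8% in the 2-set and 82.98 and 85.3% in the 1-set R6/2 samples. The genotypes overlapped in both regions. Between regions 0 of 33 members passed in NT (2 unadjusted, Psma7 and Psmb6) and in R6/2 mice (1 unadjusted, Psmb6). Over all 5641 genes 0.461 and 0.496% passed (340 and 351 genes unadjusted). An F test per gene in the same fits, which weighs all isoforms together, called 0 members between genotypes and 1, Psma7, between regions in NT mice.

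Between 2-set and 1-set striatal samples, 3 of 28 members passed, against 2.70% of 4437 genes. They were Psma7 (adjusted p = 0.000508), Psmb6 (adjusted p = 0.000542) and Psmd6 (adjusted p = 0.0167). The 2-exon Psma7 isoform ENSMUST00000155898, of 292 nt, took 16.3, 9.88, 9.62 and 17.4% in cortex NT and 19.5, 26.5, 12.2 and 26.8% in cortex R6/2 samples. In the striatum it took 10.9 and 6.14% in the 2-set and 21.9 and 37.7% in the 1-set NT samples, and 9.27 and 6.45% in the 2-set and 23.4 and 21.97% in the 1-set R6/2 samples. The 1-set striatal samples averaged 26.2% and the 2-set samples 8.20%, without overlap. The 2-exon Psmb6 isoform ENSMUST00000128870, of 674 nt, took 3.36, 0.935, 3.33 and 2.73% in cortex NT and 4.32, 2.22, 4.57 and 2.66% in cortex R6/2 samples. Among striatal samples it took 1.41 and 0% in the 2-set and 8.24 and 12.1% in the 1-set NT samples, and 3.54 and 2.14% in the 2-set and 7.07 and 8.92% in the 1-set R6/2 samples. Here the means were 9.09% and 1.77%, again without overlap.

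The other members whose shares are given by sample had 1 or 2 main isoforms. Psmb2 was read mostly as ENSMUST00000030642, at 88.7 to 100% in every sample. Psmb10 was read as ENSMUST00000034369 in 16.7 to 83.3% of its 6 to 38 reads per sample, and as the 4-exon ENSMUST00000212686 in 4.54 to 66.7%. Psme1 was read as ENSMUST00000174259, with 50 to 100% of 8 to 58 reads. Psme2 had ENSMUST00000161807 at 66.6% and ENSMUST00000111378 at 23.3% of pooled reads, and the first carries a stretch of 180 bases, 48 of them coding, that the second lacks. Their shares in R6/2 and NT samples overlapped in each region.

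TALON sorted each read into a class: known isoforms, incomplete splice matches (ISM) that lack exons at an end, new combinations of known splice sites (NIC), isoforms with at least 1 unknown splice site (NNC) and genomic reads. Members had 77.1% known, 17.8% ISM, 1.59% NIC, 2.11% NNC and 1.41% genomic reads of 75667. All known genes had 70.6, 14.6, 4.10, 2.88 and 7.81% in the same order. The median member had 87.5% known reads and 4 isoforms with at least 10 reads, and the range was 0 to 22 isoforms, the most for Psmd2.

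Psmc2 and Psmd1 stood apart among the members. Of the reads of Psmc2, a base ATPase, 97.5% were ISM: a 12-exon isoform missing the start of the annotated 13-exon transcript took 2174 reads, found in 16 of 16 samples at a median of 92.9%, against 3 reads of the 13-exon ENSMUST00000030769. Of the reads of Psmd1, 94.8% were ISM: a 22-exon isoform truncated at both ends took 2191 reads (median 66.6%) and a 21-exon isoform truncated at the end 475, against 21 of the annotated 25-exon ENSMUST00000027432. These reads were counted for the gene but not for isoform shares. Psme4 had 49.2% genomic and 47.6% ISM reads, and Psmb10 43.5% ISM reads.

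**Figure D5:**
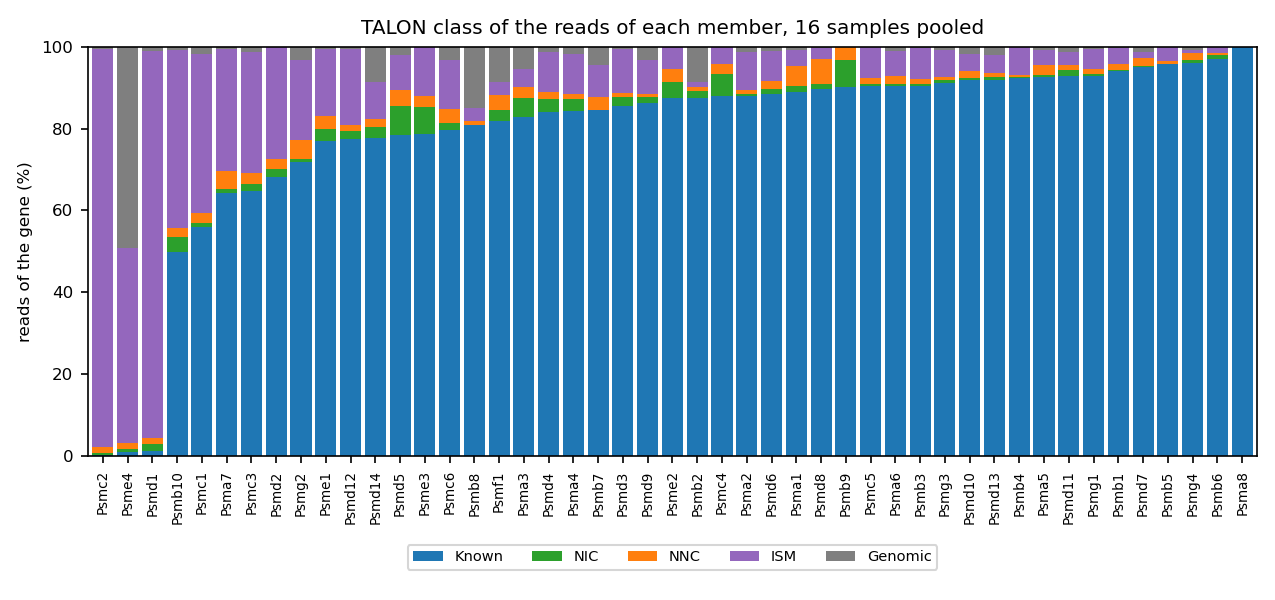
Share of the reads of each of 47 members (%, y axis) in the TALON classes known, NIC, NNC, ISM and genomic, over 16 samples pooled, ordered by known reads (x axis). Psmc2, Psme4 and Psmd1 have almost no known reads, while the other members have 49.8% or more.

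Promoters were read from RefSeq (GRCm38.p6, 250 bases before to 50 bases after the transcript start) for 42 start sites of 39 members. The core of the antioxidant response element, TGACNNNGC on either strand, occurred in 6 of 42 promoters (14.3%; Psmb5, Psmb6, Psmc6, Psmd12, Psmd9 and Psme4) and in 12.4% of all 32851 promoters. The box CCAAT on either strand occurred in 13 (31.0%) and 37.4%. Psme1, the member called between genotypes, held neither in this window. Its promoter lies at chr14:55578244-55578543 on the plus strand, and that of Psmb6, at chr11:70525107-70525406 on the plus strand, is set beside it with the response element core in capitals. These matches describe the letters of the windows.

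Psme1 promoter: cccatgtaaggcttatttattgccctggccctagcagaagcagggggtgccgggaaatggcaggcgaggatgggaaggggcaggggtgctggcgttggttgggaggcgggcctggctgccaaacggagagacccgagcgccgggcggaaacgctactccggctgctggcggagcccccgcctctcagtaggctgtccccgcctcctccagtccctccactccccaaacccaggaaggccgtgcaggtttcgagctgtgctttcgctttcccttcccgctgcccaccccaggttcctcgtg
Psmb6 promoter: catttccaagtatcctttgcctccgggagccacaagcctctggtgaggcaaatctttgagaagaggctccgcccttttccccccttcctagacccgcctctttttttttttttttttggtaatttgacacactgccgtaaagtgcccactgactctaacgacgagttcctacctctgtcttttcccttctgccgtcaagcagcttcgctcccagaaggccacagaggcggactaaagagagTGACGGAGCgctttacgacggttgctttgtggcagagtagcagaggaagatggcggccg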

How the data were processed

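Iso-seq libraries of 16 samples were analysed, 4 each of cortex NT, cortex R6/2, striatum NT and striatum R6/2. The authors made circular consensus reads, removed primers and poly(A) tails, mapped them to mm10 with minimap2 2.17-r941, ran TranscriptClean on the alignments, and let TALON give each read an isoform of the Ensembl annotation. The values the authors deposited are counts of reads per isoform, unfiltered and not normalized, in 20 files. Groups came from the sample labels, and age, sex and library treatment from the study's methods.

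Known, ISM, NIC and NNC counts were summed per gene, genomic, antisense and intergenic reads left out, and both sets of counts of 4 striatal samples summed. Genes were tested in edgeR 4.0.16 (R 4.3.3; TMM, filterByExpr, quasi-likelihood F test), with Benjamini-Hochberg adjustment over all genes tested and a threshold of 0.05. Striatal, regional and interaction fits had a term for the number of sets. Isoform usage was tested by diffSpliceDGE on isoforms of 10 reads or more, ISM and genomic ones left out. For isoform shares, all 70 arrangements of 4 against 4 samples were enumerated (exact permutation test, two-sided). Alternatives were DESeq2 1.42.0, upper-quartile scaling, no filter on low counts, other classes, no term, the first set only, 1 fit of all samples, a replicate block, other isoform filters and leaving out each sample. The first set only, and the block between regions, were fitted without the term. The scripts were tested on simulated data. Depth was 252885 to 1496196 reads per sample. Reads had no molecular identifiers, so read numbers carry amplification error beside counting error. Spike-ins were not analysed here.

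The members, gene lists, marker lists and tests were chosen with earlier results of these data known. Values by sample are given for the 12 members of smallest adjusted p over the 5 comparisons between groups, the catalytic and immunoproteasome subunits, Psme1 to Psme4 and Psmf1, and isoforms for the 5 members of smallest unadjusted p (Psma1, Psmb6, Psma7, Psmb2 and Psmb10). Psmd4, Psma3, Psmd10, Psme1, Psme2 and Psmg4 isoforms were added after their values were seen. Positions and transcript sequences are from GENCODE M21 on GRCm38, a later annotation of the same build.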

Additional observations from a re-analysis of the deposited data

Results flagged for a closer look

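In 136 groups of 4 samples, 7 (5.15%) held a sample whose gap to its nearest neighbour passed Dixon's critical value, and chance flags about 1 group in 20. In cortex NT, replicate 3, the shallowest library, had 61.0 CPM of Psmb2 against 111 to 119 CPM in the other samples and 411.8 CPM of Psmd12 against 214 to 237 CPM. Psme4 was at 10.6 CPM in cortex R6/2 replicate 2 and at 7.21 to 7.64 CPM in the others. Psmb9 was at 0 in striatum R6/2 replicate 4, against 4.56 to 5.40 CPM. The Psmg4 isoform ENSMUST00000124996 took 33.3% of reads in cortex NT replicate 1 (3 of 9 reads) and 0% in the other cortex NT samples, and 50% in striatum R6/2 replicate 3 against 30 to 30.95%. The Psme1 isoform ENSMUST00000174484 took 37.5% in striatum NT replicate 4 (3 of 8 reads) against 4.76 to 8.70%. No difference between groups was flagged among the members, since none passed the interaction test.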

How the results depend on the processing

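In the striatum the count of members called between genotypes was 1 with upper-quartile scaling, DESeq2, no filter, the genomic class added, ISM left out and 1 fit of all samples, and 0 with no term for the number of sets, the first set only or the replicate block, and 0 to 1 with a sample left out. Psme1, 0.90 in the fit reported, was 0.85 with no term (adjusted p = 0.315), 0.85 with the first set only (0.496), 0.89 with the block (0.0979) and 0.74 to 0.98 with a sample left out. It was 0.91 to 0.96 in the other alternatives, adjusted p = 0.00493 to 0.0282. In the cortex the count was 0 throughout and 0 to 1 with a sample left out. Between regions in NT mice, 20 members became 12 with no filter, 4 with no term, 1 with the first set only, 0 with the block, 4 with the 2-set samples only and 8 to 18 with a sample left out. In R6/2 mice 10 became 2 with no term, 1 with the first set only, 3 with the block, 3 and 5 with the 1-set or 2-set samples only and 3 to 10 with a sample left out. Fits with the first set only, and fits between regions with the block, also left out the term for the number of sets. Both changes therefore enter these counts, here and over all genes. With the 2-set samples only, signs reversed in NT mice for Psmg4 (−0.47), Psma7 (−0.41), Psmd2 (0.17), Psmb6 (−0.12), Psmb1 (−0.043) and Psmb5 (−0.18) and in R6/2 mice for Psmg4 (−0.59), Psma7 (−0.65) and Psmd2 (0.22), and Psma7 was at −0.002 in R6/2 mice with the block. Isoform usage between regions gave 1 member by F test in NT mice (Psma7) and 1 with ISM isoforms added in R6/2 mice (Psmd2). The causes were not tested.

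Over all genes, cortical calls fell from 200 to 95 with ISM left out (95 to 305 with a sample left out), and striatal calls went from 332 to 606 with no filter, 39 with no term, 20 with the first set only and 185 with the block (143 to 391). Regional calls in NT mice went from 2467 to 1101 with no term, 932 with the first set only, 307 with the block and 1559 with the 2-set samples, and in R6/2 mice from 2014 to 840, 713, and 1052 with no term, the first set only and the block. Interaction calls went from 3 to 7 with DESeq2, 8 with no filter, 1 with ISM left out, 1 with no term and 0 with the first set only. Isoform usage calls went from 11 to 28 by F test and 7 with the block in the cortex, from 19 to 72 by F test, 9 with known isoforms only, 11 with ISM and 3 with no term in the striatum, from 26 to 55 by F test, 130 with ISM and 14 with no term between NT regions, and from 28 to 61, 145 and 16 between R6/2 regions.

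Replicate numbers were not taken as pairs, since not every same-numbered pair correlated above 0.1: same-numbered samples correlated at −0.07 to 0.16 between cortical and −0.56 to 0.59 between striatal genotypes, and at −0.22 to 0.22 and −0.03 to 0.39 between regions in NT and R6/2 mice. The sample correlated best with its own number in 2, 1, 2 and 3 of 4 cases. The number of sets was not removed from these correlations. Striatum NT replicate 1, with 2 sets, was at 0.644 and 0.592 with the 2-set and −0.556 and −0.609 with the 1-set striatum R6/2 samples. The check therefore cannot show whether same-numbered samples of the 2 regions came from the same animal. With 0 to 13 reads per sample for Psmb8 and Psmb9, 2 to 7 for Psme4 and 9 to 62 for Psme1, depth limits the precision of these values.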
